A study of Mus musculus with 24 samples.

Results

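The miR-10, miR-99/100 and miR-125 families were followed as 7 mature microRNAs (miRNAs): mmu-mir-10a-5p, mmu-mir-10b-5p, mmu-mir-99a-5p, mmu-mir-99b-5p, mmu-mir-100-5p, mmu-mir-125a-5p and mmu-mir-125b-5p. They were taken by name from the miRNA count tables and are 7 of the 1073 miRNAs with a read in at least 1 of 24 small RNA libraries. The libraries came from exosome-enriched fractions (EEFs), that is, preparations of small extracellular vesicles, of the hippocampus of male C57BL/6 mice aged 6 to 9 weeks. Status epilepticus, a prolonged seizure, had been evoked with 0.3 µg of kainic acid (KA) in 0.2 µl injected into the basolateral amygdala, and control mice had received PBS at the same place. EEFs were prepared 24 h or 2 weeks (2w) later by ultracentrifugation (UC) or with the ExoQuick precipitation kit (Kit), which gave 8 groups of 3 libraries: UC control 24h, UC KA 24h, UC control 2w, UC KA 2w, Kit control 24h, Kit KA 24h, Kit control 2w and Kit KA 2w. Each library was made from several pooled hippocampi after RNase treatment of the vesicles, so animals were not measured singly. Per the study's methods, UC and kit samples were separate, more hippocampi were pooled per UC than per kit sample, and the dissociation medium differed. A difference between the methods therefore cannot be told apart from a difference between these sets of libraries.

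The genes of these miRNAs lie either inside Hox clusters or near let-7 genes, and miR-10 and miR-99/100 are thought to share an ancestor. A miRNA guides Argonaute to messenger RNAs that pair with its seed, bases 2 to 8 from the 5′ end, and miRNAs with the same seed are counted as a family. Members of the miR-10 family are expressed with the Hox genes of the hindbrain and spinal cord, miR-99/100 is known for targets in the mTOR pathway, and miR-125b and miR-125a, the vertebrate relatives of lin-4, are abundant in brain.

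The mature sequences are shown because the 3 seeds and the few bases that tell the members apart decide which reads can be assigned to which member. They are those of RefSeq (GRCm38.p6), which matched all 7 names, and capitals mark the seed.

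mmu-mir-10a-5p: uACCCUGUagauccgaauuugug
mmu-mir-10b-5p: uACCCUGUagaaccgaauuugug
mmu-mir-99a-5p: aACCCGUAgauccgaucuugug
mmu-mir-99b-5p: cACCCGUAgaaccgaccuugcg
mmu-mir-100-5p: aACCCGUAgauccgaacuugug
mmu-mir-125a-5p: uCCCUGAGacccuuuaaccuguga
mmu-mir-125b-5p: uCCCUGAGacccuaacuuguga

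Counted from 1 at the 5′ end, miR-10a-5p and miR-10b-5p differ only by U12A, and miR-99a-5p and miR-100-5p only by U16A. miR-99b-5p departs from miR-99a-5p at 4 places, A1C, U11A, U16C and U21C, and miR-125a-5p and miR-125b-5p share their first 13 bases. The miR-125 seed is shared with mmu-mir-351-5p, miR-6367 and miR-6394, while no other mature miRNA of the RefSeq table carries the miR-10 or the miR-99/100 seed. A 3′ alteration that reached back to the distinguishing base was listed in 4 of the 11334 reads of miR-100-5p. It was listed in none of the 1656 reads of miR-10a-5p, the 2570 of miR-10b-5p or the 10853 of miR-99a-5p. A listed 3′ alteration thus rarely covered the base on which reads of the near-identical pairs are told apart. These counts cannot test whether reads were assigned correctly, because a read with the other base there would be counted for the neighbour. Sequencing errors at that base would also move a read to the neighbour.

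The genes stand at 5 places (GENCODE annotation of GRCm38, all on the plus strand). Mir10a (chr11:96317165-96317274) overlapped no other gene and lay 993 bases from Hoxb4, and Mir10b (chr2:74726070-74726137) lay in introns of Hoxd3 and Hoxd4. Mir99a (chr16:77598936-77599000), let-7c-1 and Mir125b-2 (chr16:77646273-77646343) lay in introns of the noncoding host gene Mir99ahg, with 656 bases between Mir99a and let-7c-1. Mir100 (chr9:41531425-41531504), let-7a-2 and Mir125b-1 (chr9:41581926-41582002) lay in introns of the noncoding transcript 3110039I08Rik, where Mir100 and Mir125b-1 were 50421 bases apart. The most compact cluster was that on chromosome 17, inside the Spaca6 gene, with Mir99b (chr17:17830188-17830257, intron), let-7e and Mir125a (chr17:17830812-17830879, exon), and with 554 bases between Mir99b and Mir125a. miR-125b-5p is made from 2 genes and has the same sequence from both, so its reads could not be divided between them.

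The 12 UC libraries held 85436 to 169639 miRNA reads and the 12 kit libraries 154884 to 676726, so that 1 read was worth 5.89 to 11.7 CPM (the read count scaled to a common library total) in UC libraries and 1.48 to 6.46 CPM in kit libraries. The brain label was borne out by the 4 neuronal marker miRNAs (miR-124-3p, miR-128-3p, miR-9-5p and miR-138-5p), which summed to 29501 to 42511 CPM in UC libraries and 46347 to 77548 CPM in kit libraries. No 2 libraries of a group agreed within counting noise.

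The miR-99/100 seed family held most of the reads of the 7 miRNAs. Its 3 members made up 93.9% ± 1.92 (SD, n = 12) of the reads of the 7 with UC and 89.8% ± 3.40 with the kit, against 4.14% ± 1.70 and 7.99% ± 3.38 for miR-10 and 1.93% ± 0.683 and 2.22% ± 0.974 for miR-125. Together the 7 miRNAs were 0.709% ± 0.168 of all miRNA reads with UC, with a range over libraries of 0.575% to 1.21%, and 1.15% ± 0.220 with the kit, with a range of 0.876% to 1.66%. The 1.21% belonged to UC KA 2w replicate 3, the highest UC library for 4 of the members.

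mmu-mir-99b-5p ranked first among the 7 in all 24 libraries, 35th among 859 miRNAs with a read by mean level with UC and 29th among 961 with the kit. Its level ran from 2669 CPM through a median of 3564 to 6536 CPM with UC, and from 4192 through 5384 to 9116 CPM with the kit. mmu-mir-100-5p had a lowest, median and highest level of 1374, 1587 and 3063 CPM with UC and of 1578, 2215 and 2818 CPM with the kit. mmu-mir-99a-5p had 942, 1135 and 1929 CPM with UC and 1785, 2370 and 2940 CPM with the kit. The highest UC value of all 3 came from UC KA 2w replicate 3, and without it the UC libraries ended at 3975 CPM for miR-99b-5p, 2032 CPM for miR-100-5p and 1391 CPM for miR-99a-5p.

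Behind them came the miR-10 family. mmu-mir-10a-5p had a lowest, median and highest level of 77.7, 136 and 392 CPM with UC and 142, 276 and 675 CPM with the kit. mmu-mir-10b-5p had 58.2, 104 and 281 CPM with UC and 110, 561 and 897 CPM with the kit. With UC miR-10a-5p was the higher of the pair in 8 of 12 libraries, and with the kit miR-10b-5p was the higher in 10 of 12; the ranges of the pair overlapped with both methods.

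The miR-125 family was the least abundant. mmu-mir-125b-5p had 35.4, 84.2 and 145 CPM with UC and 94.6, 149 and 506 CPM with the kit, and mmu-mir-125a-5p had 0, 45.5 and 87.4 CPM with UC and 31.9, 75.2 and 223 CPM with the kit. Only 70 reads of miR-125a-5p were counted over all 12 UC libraries, from 0 to 12 in each. The library without a read, UC KA 2w replicate 2, allows a level of up to 20.0 CPM, the worth of 3 reads. In order of mean level, neighbours whose ranges did not overlap were miR-99a-5p above miR-10a-5p with UC, and with the kit miR-99b-5p above miR-99a-5p and miR-100-5p above miR-10b-5p.

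**Figure D1:**
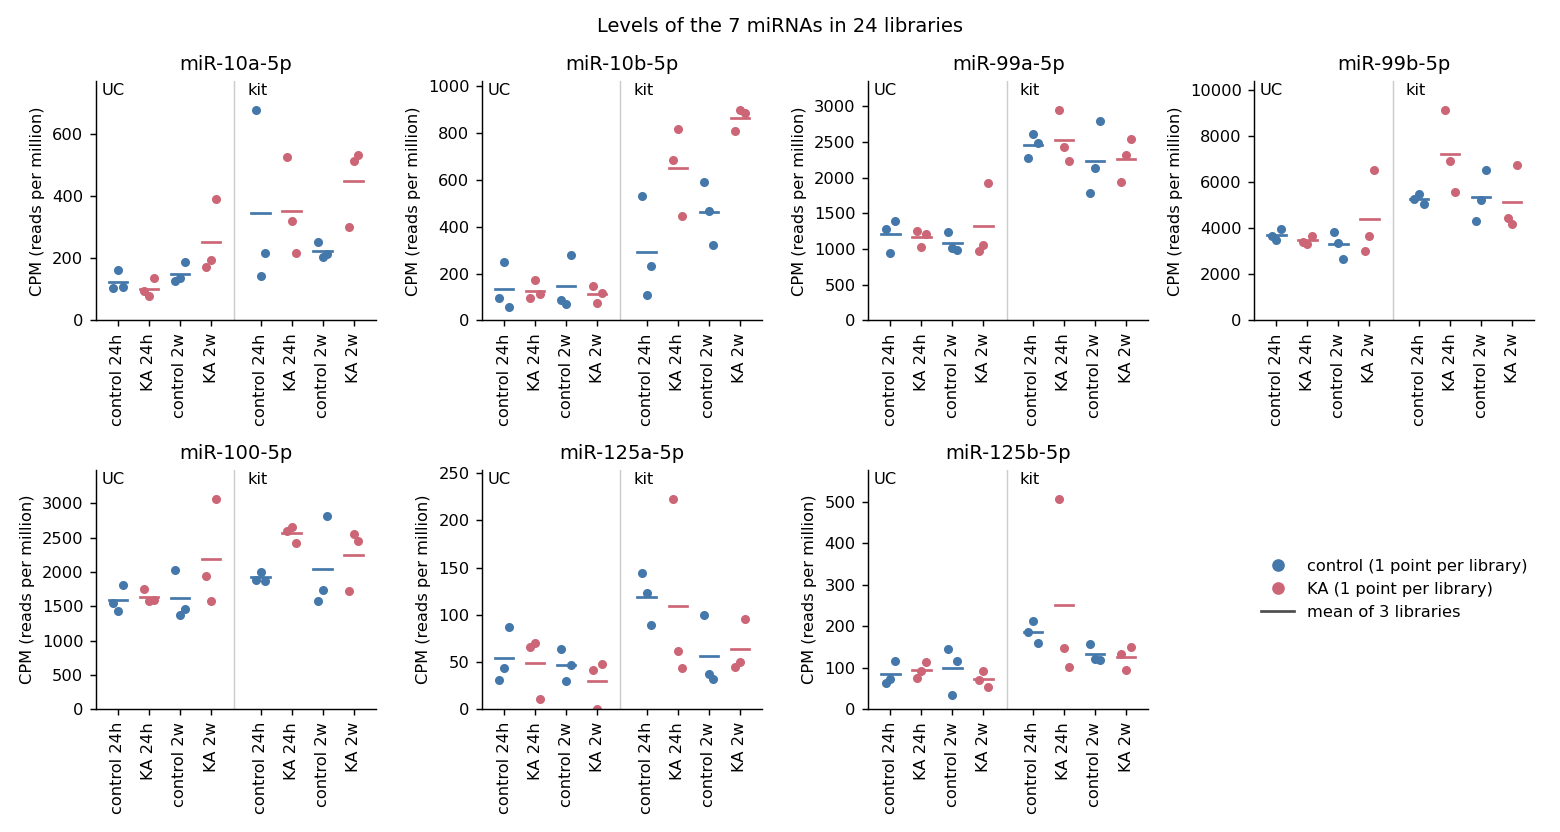
Level of each of the 7 miRNAs in CPM (vertical axis, starting at 0) in the 24 libraries, by group (horizontal axis), with 1 point per library and a line at the mean of 3 libraries. For miR-99a-5p 11 of 12 kit libraries lie above all UC libraries, while for miR-100-5p none does, and UC KA 2w replicate 3 is the isolated high UC point for miR-10a-5p, miR-99a-5p, miR-99b-5p and miR-100-5p.

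A miRNA hairpin gives a 5p and a 3p arm, of which usually only one is kept in Argonaute. In the miR-99/100 family the 5p arm was the abundant one: reads of miR-99b-5p exceeded those of miR-99b-3p 15.1-fold with UC (5925 against 392 reads over 12 libraries) and 33.8-fold with the kit (21554 against 638), and those of miR-99a-5p exceeded miR-99a-3p 14.2-fold and 24.3-fold. miR-100-3p had 11 reads in all, against 11334 of the 5p arm. The 5p arm was the higher in 24 of 24 libraries for all 3.

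In the miR-125 family the arms stood the other way. miR-125b-5p had 131 reads with UC against 10006 of its 2 3p arms, miR-125b-1-3p and miR-125b-2-3p, which is 76.4-fold fewer, and 644 against 17954 with the kit, 27.9-fold fewer, and its 5p arm was the lower in all 24 libraries. Of the 3p arms, which name their gene, miR-125b-2-3p exceeded miR-125b-1-3p 4.28-fold with UC and 5.35-fold with the kit. miR-125a-5p had 70 reads with UC against 729 of miR-125a-3p and 317 against 770 with the kit, and was the higher arm in 0 of 12 UC libraries and 2 of 12 kit libraries.

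The cluster on chromosome 17 showed the same spread, since miR-99b-5p and miR-125a-5p, whose hairpins lie 554 bases apart, differed 84.6-fold with UC and 68.0-fold with the kit in summed reads. The let-7e-5p between them was close to miR-99b-5p, which was the higher in 8 of 12 UC and 4 of 12 kit libraries. Of the 15 related miRNAs followed beside the 7 (the 3p arms, the let-7 neighbours, miR-351-5p, which has the miR-125 seed, and the Hox-cluster miRNAs miR-196a-5p, miR-196b-5p and miR-615-3p), 10 had a row in the tables. No row was found for miR-10a-3p, miR-10b-3p, miR-196a-5p, miR-196b-5p and miR-615-3p.

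**Figure D2:**
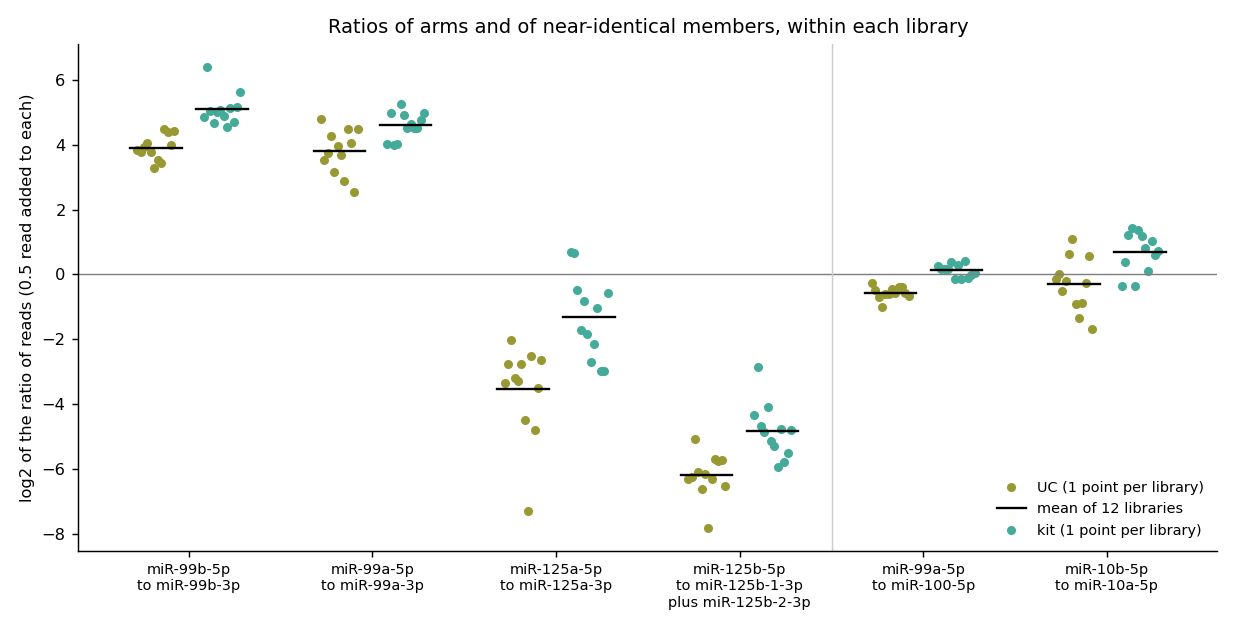
Log2 of the ratio of reads of 2 miRNAs within each library, with 0.5 read added to both (vertical axis), for the 5p against the 3p arms (left of the grey line) and for near-identical members (right), with 1 point per library and a line at the mean of 12. The arm ratios lie above 0 for miR-99b and miR-99a and below 0 for miR-125b in every library, and the UC and kit points of miR-99a-5p to miR-100-5p do not overlap.

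UC and kit fractions were compared over all 24 libraries with the edgeR quasi-likelihood test, with treatment and time as a covariate; differences are log2 fold changes, kit minus UC, on counts scaled by TMM. The test was passed by 6 of the 7 members, all higher with the kit and with the largest estimate for miR-10b-5p, among 397 miRNAs of which 66.2% passed in either direction and 33.2% passed as higher with the kit. The median log2 fold change was 0.90 over the 7 and -0.02 over all 397. Because most miRNAs differed between the methods, a called difference sets none of the members apart.

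miR-10b-5p was 4.07-fold higher with the kit (log2 fold change 2.03 ± 0.27 SE, edgeR adjusted p = 5.64e-08), and 10 of 12 kit libraries lay above all UC libraries. Its close relative miR-10a-5p was 2.11-fold higher (1.08 ± 0.24, edgeR adjusted p = 0.000178). miR-99a-5p was 1.90-fold higher (0.93 ± 0.15, edgeR adjusted p = 1.15e-06), with 11 of 12 kit libraries above every UC library. For none of the 7 were the 12 UC and 12 kit values wholly apart, as they were for 10.8% of the 397 miRNAs. The other 3 called members were miR-99b-5p, at 0.54 ± 0.16 (edgeR adjusted p = 0.00263), miR-125b-5p, at 0.90 ± 0.24 (edgeR adjusted p = 0.00117), and miR-125a-5p, at 0.82 ± 0.32 (edgeR adjusted p = 0.0235).

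miR-100-5p did not pass (log2 fold change 0.25 ± 0.15, 95% interval -0.04 to 0.55, edgeR adjusted p = 0.121); it passed without UC KA 2w replicate 3 (0.31, edgeR adjusted p = 0.0268) and without Kit KA 2w replicate 1 (0.34, edgeR adjusted p = 0.0436), and lay between 0.16 and 0.34 with each of the 24 libraries left out. It also passed when counts were scaled by library size only (0.32, edgeR adjusted p = 0.0424). With miR-92b-3p and miR-25-3p as the scaling reference, which moved the median of all 397 miRNAs to -0.45 and the calls from 132 higher and 131 lower to 83 higher and 168 lower, 3 of the 7 still passed (miR-10b-5p, miR-10a-5p and miR-99a-5p, at 1.55, 0.68 and 0.51), and miR-100-5p turned to -0.17. In the 12 control libraries alone miR-99b-5p, miR-125a-5p and miR-125b-5p did not pass, at 0.38, 0.52 and 0.60. miR-125a-5p, with the fewest reads, lost its call when any of 7 single libraries was left out, with a largest edgeR adjusted p of 0.102, without Kit KA 24h replicate 1.

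Of the 9 related miRNAs tested, 3 passed as higher and 4 as lower with the kit, against 66.2% of all 397 in either direction and 33.2% as higher. The 3 let-7 neighbours were higher with the kit: let-7a-5p at 1.45 ± 0.18, let-7e-5p at 1.19 ± 0.19 and let-7c-5p at 0.73 ± 0.13 (largest edgeR adjusted p = 1.27e-05). RefSeq also places let-7a-5p on chromosome 13 and let-7c-5p on chromosome 15. Reads of these 2 could therefore not be assigned to the clusters beside Mir100 and Mir99a. The 4 that were lower with the kit were 3p arms: miR-125a-3p at -1.28 ± 0.20, miR-125b-1-3p at -0.87 ± 0.16, miR-99b-3p at -0.62 ± 0.18 and miR-125b-2-3p at -0.47 ± 0.15 (largest edgeR adjusted p = 0.00564). miR-99a-3p and miR-351-5p did not pass, at 0.16 ± 0.21 and -0.46 ± 0.54. Arms of 1 hairpin therefore differed in opposite directions for Mir99b and Mir125a; on the reference scale these were 0.14 for mmu-mir-99b-5p, -1.07 for mmu-mir-99b-3p, 0.45 for mmu-mir-125a-5p and -1.71 for mmu-mir-125a-3p, and the 2 5p arms no longer passed.

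**Figure D3:**
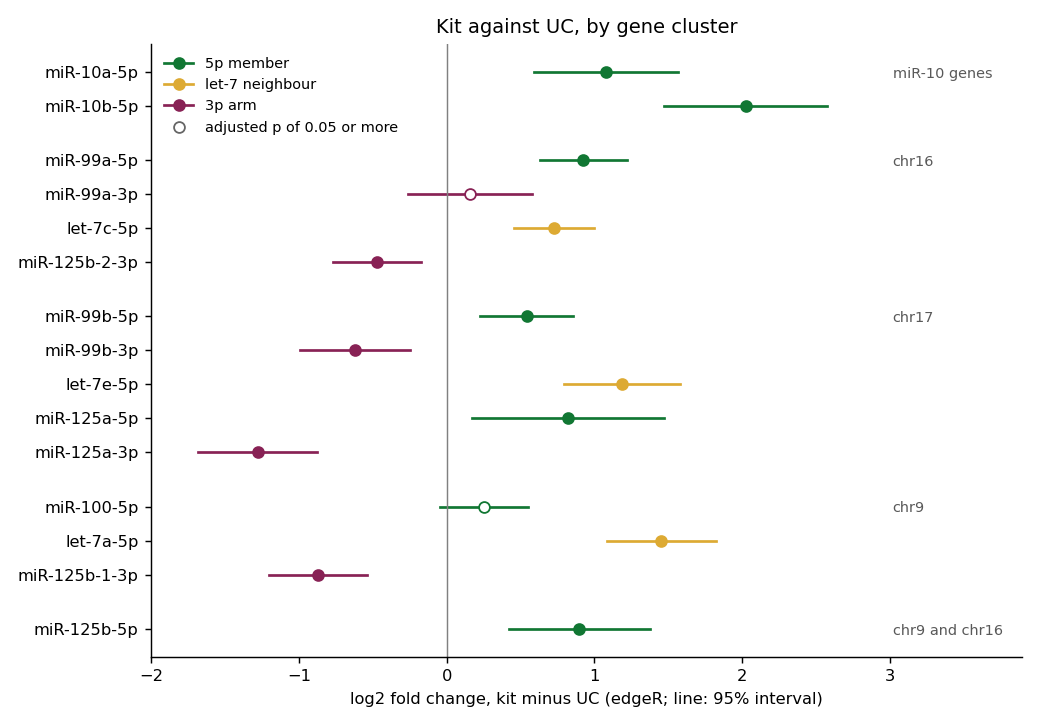
Log2 fold change between kit and UC over 24 libraries (horizontal axis; edgeR estimate with its 95% interval) for the 7 members, their let-7 neighbours and their 3p arms, grouped by chromosome, with filled points for an adjusted p under 0.05. let-7a-5p and let-7c-5p also have genes outside the chromosomes under which they are drawn. The 5p members and let-7 neighbours lie above 0 and 4 of 5 3p arms lie below it; miR-100-5p, open, turns below 0 with miR-92b-3p and miR-25-3p as the scaling reference, and miR-99a-3p, also open, turns below 0 there too.

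The neuronal sums were apart between UC and kit libraries, at 29501 to 42511 CPM and 46347 to 77548 CPM. Of the markers of other cells, the endothelial and oligodendrocyte sums were also apart, and the other sums overlapped. The 2 endothelial miRNAs (miR-126a-3p and miR-126a-5p) summed to 218 to 609 CPM in UC libraries and 2101 to 3242 CPM in kit libraries, the 4 choroid plexus miRNAs (miR-449a-5p, miR-34b-5p, miR-34c-5p and miR-204-5p) to 1067 to 3520 and 1694 to 5602 CPM, and the 2 of smooth muscle and pericytes (miR-143-3p and miR-145a-5p) to 5319 to 17579 and 11501 to 34052 CPM. The 2 oligodendrocyte miRNAs (miR-219a-2-3p and miR-338-3p) were lower with the kit, at 1629 to 2154 CPM against 5942 to 10689 CPM. The 3 microglial miRNAs (miR-142a-3p, miR-142a-5p and miR-223-3p) summed to a median of 58.2 and 80.6 CPM, and the 3 of red blood cells (miR-451a, miR-144-3p and miR-486a-5p) to 0 to 11.3 and 0 to 184 CPM, with miR-486a-5p at 0 in all UC libraries. The part of these cells in the differences of the 7 miRNAs was not tested, and fewer vesicles of a cell type and less of a miRNA per vesicle cannot be told apart in such pools.

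The near-identical pair miR-99a-5p and miR-100-5p allowed a comparison inside each library that needs no scaling. Reads of miR-99a-5p per read of miR-100-5p were 0.499 to 0.832 in the UC libraries, with a median of 0.672, and 0.903 to 1.33 in the kit libraries, with a median of 1.12. The 12 UC and 12 kit ratios did not overlap, and miR-100-5p was the more abundant in all 12 UC libraries but in 4 of 12 kit libraries. Reads listed with 5 or more altered bases at the 3′ end were counted in these ratios. With the kit they were 5.85% of the reads of miR-99a-5p and 0.821% of those of miR-100-5p, and with UC 1.71% and 0.462%. Ratios without these reads were not taken. The ratio of miR-99b-5p to miR-99a-5p, 2.70 to 3.68 in UC and 1.81 to 3.10 in kit libraries, overlapped between the methods, as did that of miR-10b-5p to miR-10a-5p, 0.308 to 2.14 and 0.778 to 2.69. These pairs were picked with the values in view, so no test is given.

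Whether status epilepticus changed the members was asked within each method and time. None of the 7 passed the edgeR test in any of the 4 comparisons of KA with control, in which 0.476% (UC 24h), 0.952% (UC 2w), 0.0% (Kit 24h) and 0.0% (Kit 2w) of all miRNAs tested passed. The 0 called among 520 miRNAs with the kit stood beside 24 at an unadjusted p under 0.05 at 24h, with 0 called by DESeq2 and by limma-voom, and beside 14 at 2w, with 1 called by DESeq2, 0 by limma-voom and 2 by edgeR with a block for replicate number. Of the 7, the number at an unadjusted p under 0.05 was 0 at UC 24h, 1 at UC 2w, 2 at Kit 24h and 1 at Kit 2w with edgeR, and DESeq2 and limma-voom called none of the 7 in these comparisons.

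The miR-10 family had the largest estimates. In the kit libraries at 2w, miR-10b-5p stood at 591, 469 and 324 CPM in control and at 810, 897 and 886 CPM after KA. All 3 KA libraries lay above all 3 controls, as they did for 1.92% of the 520 miRNAs tested at Kit 2w. The log2 fold change was 0.87 ± 0.43 (SE) with an edgeR adjusted p of 0.998. With UC at 2w the same miRNA was at 88.3, 70.7 and 281 CPM in control and at 149, 73.2 and 119 CPM after KA, with groups that overlapped and an estimate of -0.15 ± 0.50.

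At 24h with the kit, miR-10b-5p was at 531, 110 and 232 CPM in control and at 685, 817 and 446 CPM after KA (log2 fold change 1.24 ± 0.44, edgeR adjusted p = 0.672). The groups overlapped, and the lowest control, replicate 2, was the kit library with the fewest reads, with 17 reads of this miRNA. Under a block for replicate number within method and time the estimate was 1.41 with an edgeR adjusted p of 0.0256, although same-numbered kit libraries at 24h did not deviate together. Without the block and with each of the 6 libraries left out, the estimate ran from 0.87 (without Kit control 24h replicate 2) to 2.03 (without Kit control 24h replicate 1), with edgeR adjusted p from 0.0528 to 0.998. With UC at 24h the estimate was -0.15 ± 0.51.

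miR-10a-5p did not pass the test at 2w with either method. With UC it was at 129, 136 and 187 CPM in control and 172, 193 and 392 CPM after KA, and with the kit at 253, 205 and 214 CPM in control and 300, 511 and 532 CPM after KA. The kit groups did not overlap, which the same 1.92% of miRNAs shared in this direction, and the UC groups did. The estimates were 0.90 ± 0.43 with UC (edgeR adjusted p = 0.581), which fell to 0.24 without UC KA 2w replicate 3, and 0.99 ± 0.47 with the kit (edgeR adjusted p = 0.998). At 24h one kit control, replicate 1, held 675 CPM against 142 and 216 CPM in the others, and the estimates were 0.11 ± 0.46 with the kit and -0.40 ± 0.48 with UC. The kit estimate was 1.09 without that control and -0.26 without Kit KA 24h replicate 1, the ends of its range with single libraries left out.

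In the miR-99/100 family, the kit groups at 24h were apart for 2 members. miR-99b-5p was at 5273, 5494 and 5068 CPM in control and 9116, 6931 and 5575 CPM after KA (log2 fold change 0.57 ± 0.26, edgeR adjusted p = 0.838), and miR-100-5p was at 1889, 2002 and 1872 CPM in control and 2605, 2663 and 2429 CPM after KA (0.54 ± 0.27, edgeR adjusted p = 0.838). All 3 KA libraries lay above all 3 controls for both, as they did for 4.81% of the 520 miRNAs tested at Kit 24h, and neither passed after adjustment over the 520. With UC at 24h the same miRNAs gave -0.17 ± 0.30 and -0.05 ± 0.30, and with the kit at 2w -0.08 ± 0.26 and 0.17 ± 0.27.

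With UC at 2w the 3 members of this seed family gave 0.43 to 0.57, and UC KA 2w replicate 3 decided these values: without it miR-99a-5p, miR-99b-5p and miR-100-5p were at -0.16, -0.06 and 0.06. That library was also the highest for miR-10a-5p. The choroid plexus markers, among them miR-204-5p, summed to 2429 to 3520 CPM over the UC KA 2w libraries and 1067 to 2160 CPM over UC control 2w. Another of these markers, miR-449a-5p, had no read in the UC KA 2w libraries but had reads in UC control 2w. miR-99b-5p correlated with miR-204-5p at r = 0.76 over the 12 UC libraries and at 0.35 over the 12 kit libraries (log2 CPM). This was not particular to a choroid plexus marker. miR-221-3p, which is not on that list, stood at 0.80 and 0.30, and miR-222-3p, also not on it, at 0.67 and 0.47. The part of choroid plexus tissue in these values was not tested. The miR-125 members gave between -0.48 and 0.55 over the 4 comparisons, with standard errors of 0.45 to 0.70.

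**Figure D4:**
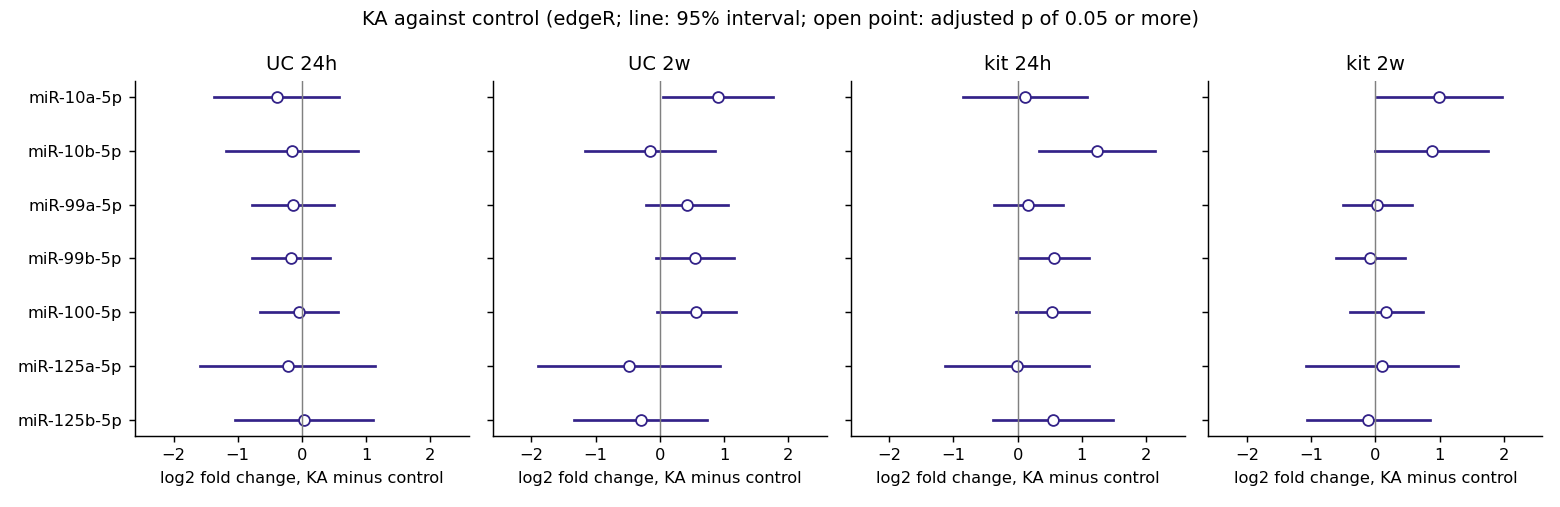
Log2 fold change between KA and control libraries (horizontal axis; edgeR estimate with its 95% interval) for the 7 miRNAs in the 4 combinations of method and time. All points are open, an adjusted p of 0.05 or more, and the intervals of miR-125a-5p, the least abundant member, are the widest.

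With UC and kit libraries averaged in a single edgeR fit, which passed 0.756% of 397 miRNAs at 24h and 0.504% at 2w, no member passed. The largest estimate was that of miR-10a-5p at 2w, a log2 fold change of 0.98 ± 0.32 (edgeR adjusted p = 0.456, and 0.132 to 0.915 over the other settings), and it was 0.66 without UC KA 2w replicate 3. The KA libraries at 2w exceeded those at 24h by 0.94 ± 0.33 for the same miRNA (edgeR adjusted p = 0.310, with 0.504% of all miRNAs called), while among the controls the difference between the times was -0.19 ± 0.34 (0.0% called, 21 of 397 at an unadjusted p under 0.05 by edgeR, and 0 called by DESeq2 and by limma-voom). These comparisons share libraries, so their estimates are not independent. The 95% interval of the averaged KA effect reached at most 0.61 at 24h and 0.69 at 2w for miR-99b-5p, and at most 0.66 and 0.82 for miR-100-5p, in log2 units.

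The difference of the KA effect between the methods was tested as an interaction. No miRNA passed at either time (0.0% and 0.0% of 397; 9 and 14 at an unadjusted p under 0.05 by edgeR, and 0 by DESeq2 and limma-voom after adjustment). For miR-10b-5p, whose estimates were positive with the kit and near 0 with UC, the interaction was 1.38 ± 0.71 at 24h and 1.09 ± 0.70 at 2w (edgeR adjusted p = 0.996 for both), so the methods were not shown to differ.

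The modification tables, in which the mapping tool listed bases that depart from the reference at either end or inside the read, gave a second readout of the same reads. A 3′ end counted as altered when any base was listed there, whether added beyond the last base or in place of the last bases. The share of altered reads, over all libraries, was 11.9% for miR-100-5p, 9.71% for miR-99b-5p, 9.16% for miR-99a-5p, 6.22% for miR-10a-5p, 1.79% for miR-10b-5p, 15.1% for miR-125b-5p (117 of 775 reads) and 8.01% for miR-125a-5p (31 of 387). The median over the 74 miRNAs with at least 50 reads in every library was 11.3%, so the members were spread about the ordinary level. Changes inside the read were rare, from 0 to 0.159% of a member's reads.

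Tails of A alone were counted on their own. At least 1 A after the last base was found in 7.80% of the reads of miR-100-5p, 6.11% of miR-99b-5p, 4.05% of miR-10a-5p and 2.08% of miR-99a-5p, against a median of 0.213% over the same 74 miRNAs and an upper quartile of 0.826%. The 2 near-identical pairs differed in it. miR-10a-5p had a tail in 67 of 1656 reads (exact 95% interval 3.15% to 5.11%) and miR-10b-5p in 10 of 2570 (0.389%, 0.187% to 0.714%), although their last 11 bases are the same; these intervals cover counting error only, since PCR copies cannot be told from separate molecules. miR-125b-5p had one in 55 of 775 reads (7.10%) and miR-125a-5p in 0 of 387 (exact 95% interval up to 0.949%).

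Ends also differed between the methods. The share of 3′-altered reads could be tested in the 3 members with 50 reads in every library, by an exact permutation test of library labels within treatment and time, adjusted over 74 miRNAs of which 44.6% passed, 22 as higher with the kit and 11 (14.9%) as lower. For miR-100-5p it was 19.6% ± 3.53 (SD, n = 12) in UC and 11.0% ± 4.23 in kit libraries, a difference of -8.64 percentage points (exact permutation, two-sided, adjusted p = 0.00132). For miR-99b-5p it was 14.6% ± 2.48 and 9.15% ± 3.28, a difference of -5.45 points (exact permutation, two-sided, adjusted p = 0.00356). UC libraries were thus the more often altered for both. Tails of A made up 13.9% and 6.82% of the reads of miR-100-5p with UC and kit, and 10.4% and 5.58% of those of miR-99b-5p (exact permutation, two-sided, adjusted p = 0.00308 and 0.00518). For miR-99a-5p they made up 3.74% and 1.90%, which did not pass (exact permutation, two-sided, adjusted p = 0.0710). How many of the 74 miRNAs passed this test of A tails was not counted.

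Kit control 24h replicate 2 stood apart from the other kit libraries, with 21.0% altered reads for miR-100-5p and 17.6% for miR-99b-5p, and without it the differences were -9.40 and -6.26 points (exact permutation adjusted p = 0.00019 for both). The call of miR-99b-5p was lost, at an exact permutation adjusted p of 0.0799 and 0.0713, when all libraries numbered 1 or all numbered 3 were left out, with differences of -5.03 and -4.82 points.

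miR-99a-5p, which differs from miR-100-5p by U16A, was at 8.46% ± 2.68 altered reads with UC and 9.90% ± 2.91 with the kit (difference 1.45 points, exact permutation, two-sided, adjusted p = 0.283). Long 3′ entries were counted next. Entries of 5 or more bases were found in 525 of 8982 kit reads of miR-99a-5p (5.85%, exact 95% interval 5.37% to 6.35%) and in 32 of 1871 UC reads (1.71%, 1.17% to 2.41%). These intervals cover counting error only. By library the share ran from 1.24% to 8.58% with the kit and from 0.585% to 4.07% with UC, so the ranges overlapped. The same entry of 14 bases was listed in 130 reads of miR-99a-5p, from 12 libraries. For miR-99b-5p long entries were found in 0.854% and 1.25% of the kit and UC reads. With entries of at most 4 bases only, the share of miR-99a-5p was 6.51% ± 2.18 in UC and 3.80% ± 1.59 in kit libraries, a difference of -2.71 points (exact permutation, two-sided, adjusted p = 0.00939), so the direction turned. Under this limit 32 of 74 miRNAs passed, 15 of them as lower with the kit. What these long entries are was not tested; this limit on length was chosen after they were seen.

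Treatment and time left no called difference in these shares. Between KA and control the differences were -1.86 points for miR-100-5p, -0.89 for miR-99a-5p and -0.54 for miR-99b-5p (smallest exact permutation adjusted p = 0.876, with 0.0% of 74 miRNAs called, 7 of them at an unadjusted exact permutation p under 0.05), and between 2w and 24h they were -0.81, -1.82 and 0.59 points (smallest exact permutation adjusted p = 0.834, with 1.35% called).

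**Figure D5:**
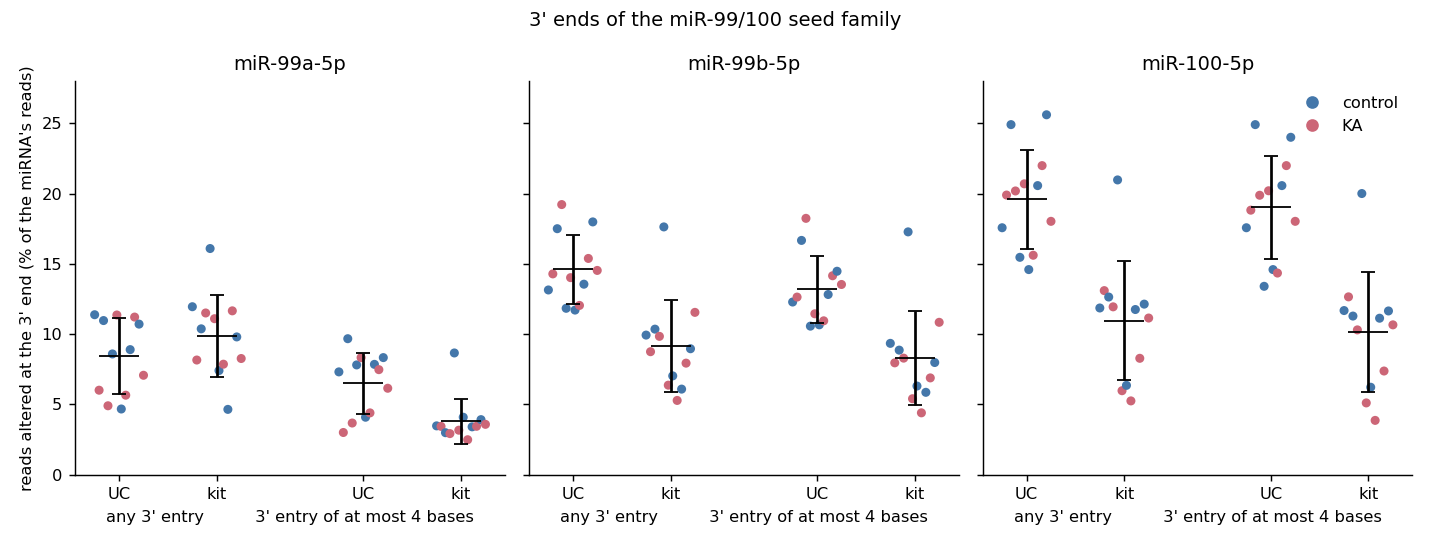
Percent of reads altered at the 3′ end (vertical axis, starting at 0) for the 3 members with enough reads, with 1 point per library, a bar at the mean of 12 libraries and whiskers of 1 SD; the left pair counts any 3′ entry and the right pair entries of at most 4 bases. UC lies above kit for miR-99b-5p and miR-100-5p in both counts, and for miR-99a-5p only when longer entries are left out.

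At the 5′ end, which sets the seed, 3.54% of the reads of miR-99a-5p were altered, against 0.258% to 1.16% in the other 6 members. An A-to-G entry just before the first base was listed in 52 of 1871 UC reads of miR-99a-5p (2.78%, exact 95% interval 2.08% to 3.63%) and in 270 of 8982 kit reads (3.01%, 2.66% to 3.38%), and in every one of the 24 libraries. miR-100-5p, whose first 15 bases are the same, had the entry in 10 of 2811 and 40 of 8523 reads (0.356% and 0.469%). A further A-to-G entry, at the 3′ end, was listed in 27 of 775 reads of miR-125b-5p, from 13 libraries. With reads that carry any listed alteration left out, mmu-mir-99a-5p, mmu-mir-99b-5p and mmu-mir-10b-5p kept their higher level with the kit, at log2 fold changes of 0.81, 0.54 and 1.92.

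Across the 24 libraries the members of the miR-99/100 family varied together. On the log2 CPM scale miR-99b-5p and miR-99a-5p correlated at Pearson's r = 0.90, miR-99b-5p and miR-100-5p at 0.82 and miR-99a-5p and miR-100-5p at 0.74, while miR-10a-5p and miR-10b-5p correlated at 0.75 and the miR-125 members at 0.58. Among the 142 other miRNAs with at least 10 reads in every library, the most alike were miR-222-3p for miR-99a-5p (r = 0.88) and for miR-99b-5p (0.79), miR-9-3p for miR-10b-5p (0.86), miR-92b-3p for miR-10a-5p (0.75), miR-30a-5p for miR-100-5p (0.72), miR-30b-5p for miR-125a-5p (0.66) and miR-6240 for miR-125b-5p (0.81). The libraries share their method, depth and scaling, and values within 1 method are given for 2 of the pairs: miR-10b-5p and miR-9-3p stood at 0.30 over the 12 UC libraries and 0.72 over the 12 kit libraries, and miR-99a-5p and miR-222-3p at 0.70 and 0.51.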

How the data were processed

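Small RNA libraries of hippocampal EEFs were analysed from the count of reads per mature miRNA and the table of read modifications deposited for each of 24 libraries. Per the study's methods, the authors mapped the reads with Chimira to miRBase hairpins, and the deposited counts are raw and whole. In all 11992 pairs of miRNA and library with reads, the plain count equalled the total of the modification table with duplicate entries dropped. No per-sample column was left unmapped (0).

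MiRNAs with a CPM above 1 in at least 6 libraries of a method were kept, in both methods where both entered. Counts were fitted with the edgeR quasi-likelihood test (edgeR 4.0.16, R 4.3.3) after TMM scaling, with all 24 libraries for UC against kit, averaged and interaction comparisons, and the 12 libraries of a method for KA against control. Benjamini-Hochberg adjustment ran over all miRNAs tested, with a threshold of 0.05. Intervals of 95% are edgeR's estimate and SE with its degrees of freedom, or exact binomial. Read ends were compared by the exact permutation test over 160000 relabellings. DESeq2 1.42.0, limma 3.58.1 and other settings served as alternatives. Scripts were tested on simulated data.

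The members and lists were chosen with earlier results of these data known. Named miRNAs are the 7 members, the related list where it passed the test or is a let-7 neighbour, and for each member the most correlated other miRNA. The study's methods call the 3 libraries of a group biological replicates of pooled hippocampi.

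Replicate numbers were checked for pairing by the correlation of same-numbered libraries' deviations from their group means: it was 0.11 to 0.31 for all pairs at 2w and -0.25 to 0.11 at 24h, so that numbers were taken to pair libraries at 2w only. The block for replicate number changed no call of the 7 members at 2w. With it 2 of 520 miRNAs were called in Kit KA 2w against control, in place of 0.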

Additional observations from a re-analysis of the deposited data

How the results depend on the processing

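Of 1689 refitted values of single members, 1669 kept their direction, or were not called, and stayed on the same side of the threshold; 4 newly passed, 15 no longer passed and 1 reversed. The reversed value is the 3′ altered share of miR-99a-5p between kit and UC, -2.71 points with entries of at most 4 bases. Between UC and kit 163 miRNAs were called under the minimum of 10 counts in 6 libraries, against 263. This minimum also admits fewer miRNAs to the test, so the counts are not shares of the same set. For KA against control at UC 24h, where 2 were called, the reference scaling gave 1, and both replicate blocks and the fit of the 6 libraries alone gave 4 each. At UC 2w, where 4 were called, library size, the reference scaling and the 6 libraries alone gave 0, no filter, limma-voom and unaltered reads gave 1, and the minimum of 10 counts gave 2. At Kit 24h the block within method and time gave 1, miR-10b-5p, against 0. At Kit 2w, where 0 were called, RLE size factors, library size and DESeq2 gave 1, and no filter and both replicate blocks gave 2. Over both methods at 24h, where 3 were called, the reference scaling gave 1 and no filter and the block within method and time gave 5; at 2w the reference scaling gave 0 against 2. Between times in controls no filter gave 1 against 0. With single libraries left out the counts ran from 0 to 5 at UC 2w (0 without UC KA 2w replicate 3 or UC control 2w replicate 3), 0 to 2 at Kit 2w (2 without Kit KA 2w replicate 1) and 0 to 1 between times in controls (1 without UC control 2w replicate 1 or Kit control 24h replicate 3). For 3′ ends, with all libraries of 1 replicate number left out or without Kit control 24h replicate 2, they ran from 15 to 32 between UC and kit (33 with all) and from 0 to 1 between times. Replicate numbers did not pair libraries at 24h (correlations -0.25 to 0.11), and the replicate block changed no call of a member other than miR-10b-5p at Kit 24h. The cause of these changes was not tested. The reference scaling moved the median of all miRNAs to -0.54 at UC 2w and to -0.40 at Kit 24h. Depth limits miR-125a-5p most, with 70 UC reads. Settings on altered reads, on tails of A, on entry length, without Kit control 24h replicate 2 and with the block within method and time were chosen after seeing the data.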
